A study of Mus musculus with 10 samples.

Results

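The genes of cholesterol synthesis and sterol regulation were examined in cultured lung fibroblasts of Mrc2 knockout and wild-type mice. The set holds the 29 genes of a fixed list of enzymes, regulators, transporters and desaturases that were matched by gene name, of 54532 genes in the count table. All 29 passed the filter on low counts and were tested among 14360 genes. Primary lung fibroblasts were grown in DMEM with 10% fetal bovine serum and antibiotics, and are labelled as baseline cultures of 1 batch. Poly(A)-selected RNA of 5 knockout and 5 wild-type cultures was sequenced. Mrc2 encodes an endocytic collagen receptor of mesenchymal cells. Neither the strain, age and sex of the mice nor the design of the knockout allele is given in the labels. The libraries are numbered as biological replicates, with nothing more to say that they came from separate animals, so p-values measure only the spread between these cultures, which may be technical.

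As background, animal cells build cholesterol from acetyl-CoA through mevalonate, farnesyl diphosphate, squalene and lanosterol. The transcription factor SREBP-2, encoded by Srebf2, switches on nearly every enzyme of the route when membrane sterol is low. It is carried from the endoplasmic reticulum to the Golgi by Scap, and Insig proteins hold it back when sterol is plentiful. Serum lipoproteins in culture medium supply sterol from outside. When sterol is in excess, oxysterols activate the LXR receptors, among them the product of Nr1h2, and raise the exporters Abca1 and Abcg1. Lung lipofibroblasts pass lipid to the epithelial cells that make surfactant.

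The promoters below are shown because SREBP-2 binds its target promoters together with the factors NF-Y and Sp1, and they belong to members whose values per culture follow. Each runs from 250 bases before to 50 bases after a gene start, 5′ to 3′ on the strand of the gene, from RefSeq on build GRCm38.p6. Capitals mark matches on either strand to TCACNCCAC, the core of a sterol regulatory element, to CCAAT, the NF-Y box, and to GGGCGG, the Sp1 box. Of several starts of a gene, the one nearest to the annotated gene start was taken. For Tm7sf2, counted below but not printed, the start used lay 9347 bases from the gene start in the count table. For every other member with a promoter the distance was at most 214 bases.
Hmgcs1, chr13:119690101-119690400, plus strand: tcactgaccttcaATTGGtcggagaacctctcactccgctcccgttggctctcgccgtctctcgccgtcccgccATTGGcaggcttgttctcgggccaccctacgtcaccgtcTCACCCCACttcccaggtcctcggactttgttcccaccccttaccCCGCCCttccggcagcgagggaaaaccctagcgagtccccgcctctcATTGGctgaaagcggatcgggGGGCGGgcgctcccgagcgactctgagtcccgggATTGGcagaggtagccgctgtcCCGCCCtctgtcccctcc
Lss, chr10:76531355-76531654, plus strand: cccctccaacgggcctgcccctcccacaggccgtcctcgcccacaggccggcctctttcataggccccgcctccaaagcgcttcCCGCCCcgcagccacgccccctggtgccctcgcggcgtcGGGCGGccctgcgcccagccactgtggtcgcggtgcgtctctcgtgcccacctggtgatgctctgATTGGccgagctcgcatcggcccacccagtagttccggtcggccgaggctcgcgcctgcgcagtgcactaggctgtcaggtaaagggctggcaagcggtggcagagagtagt
Hsd17b7, chr1:169969156-169969455, minus strand: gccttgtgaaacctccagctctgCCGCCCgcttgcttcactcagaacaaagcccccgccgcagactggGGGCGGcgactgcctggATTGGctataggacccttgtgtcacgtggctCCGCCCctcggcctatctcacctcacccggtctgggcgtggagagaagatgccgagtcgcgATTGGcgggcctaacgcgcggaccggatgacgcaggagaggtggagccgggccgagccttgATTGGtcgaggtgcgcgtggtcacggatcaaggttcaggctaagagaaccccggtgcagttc
Ebp, chrX:8193463-8193762, minus strand: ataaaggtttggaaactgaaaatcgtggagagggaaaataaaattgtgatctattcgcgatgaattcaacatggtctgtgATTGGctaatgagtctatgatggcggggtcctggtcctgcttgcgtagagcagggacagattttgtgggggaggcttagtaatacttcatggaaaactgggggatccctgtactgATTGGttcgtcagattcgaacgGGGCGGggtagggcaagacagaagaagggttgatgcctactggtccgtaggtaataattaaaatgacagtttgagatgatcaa
Insig2, chr1:121332540-121332839, minus strand: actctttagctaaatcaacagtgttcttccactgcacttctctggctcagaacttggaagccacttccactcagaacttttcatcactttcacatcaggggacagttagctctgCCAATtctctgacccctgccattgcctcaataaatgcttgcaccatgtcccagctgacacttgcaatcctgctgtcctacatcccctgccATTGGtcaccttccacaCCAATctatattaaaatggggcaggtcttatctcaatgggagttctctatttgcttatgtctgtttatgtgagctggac
The Hmgcs1 promoter held the sterol regulatory element core, found for 1 of the 23 members whose promoter is listed, at 137 bases before the start, with 4 NF-Y boxes. Of all 32851 promoters in that source 1.24% held that core. The NF-Y box was found for 13 of 15 synthesis enzymes with a promoter, and 8 of the 15 held 2 or more, where 37.4% of all promoters held at least 1 and 11.7% held 2 or more. The Sp1 box was found for 14 of the 15, against 35.7% of all promoters. Over all 23 members with a promoter, the NF-Y box was found for 17, with 2 or more for 9, and the Sp1 box for 19. The promoter of Mvk held the most NF-Y boxes, 5. A match is a description of letters, and the search finds neither shorter nor degenerate sterol elements. Promoters of Fdps, Fdft1, Sqle, Stard4, Abcg1 and Fads1 were not used here.

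No member of the set was called between the genotypes. By edgeR's quasi-likelihood test with Benjamini-Hochberg adjustment over all 14360 genes, 0 of 29 members passed at an adjusted p under 0.05, where 0.0139% of all genes tested passed (2 genes, both lower in knockout and 0 higher). At an unadjusted p under 0.05 the count was also 0 of 29, beside 13.3% of all genes. DESeq2 called 0 of 29 as well, and 1.69% of all genes, and limma-voom called 0 of 29 beside 0.00696% of all genes (1 gene). The groups overlapped for 29 of 29 members, while 2.05% of all genes tested had no overlap. Log2 fold changes, here always knockout over wild type, were above 0 for 18 members and below 0 for 11, and 48.4% of all genes tested were above 0. The median log2 fold change was 0.05 over the members and -0.01 over all genes tested, and the median size regardless of sign was 0.20 for both.

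The precision of these values limits how large a difference they allow. The 95% interval of the fold change lay between a 2-fold drop and a 2-fold gain for 26 of the 29 members. The exceptions were Fdps, Hsd17b7 and Abca1, whose upper bounds were 2.64-fold, 2.32-fold and 2.05-fold. Smaller differences were not detectable for many members with 5 cultures per genotype. Libraries held between 19603933 and 29944615 counted reads, and even the lowest member, Fdps, averaged 1.46 CPM (counts scaled to library size) in knockout and 1.06 CPM in wild type. Mrc2 itself checks the labels. It averaged 242 ± 30.4 CPM in knockout and 843 ± 176 CPM in wild type (SD, n = 5 each), with no overlap between the groups, and its log2 fold change was -1.80 (edgeR adjusted p = 0.0029, SE 0.17).

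Single cultures decided how close some members came to the threshold. Without wild-type replicate 2, which had high values of many members, 7 of 29 had an unadjusted p under 0.05 by edgeR (Lss, Abca1, Idi1, Stard4, Hsd17b7, Ebp and Insig2), where 19.8% of all genes did. None of the 29 was then called, and 0.00689% of all genes were. Without knockout replicate 5 the counts by edgeR were 4 of 29 at an unadjusted p under 0.05 (Ebp, Hsd17b7, Stard4 and Lss) beside 29.5% of all genes, and 0 of 29 called beside 1.39%. DESeq2 without knockout replicate 5 called 2 of 29, Ebp lower and Hsd17b7 higher in knockout, beside 16.7% of all genes.

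**Figure D1:**
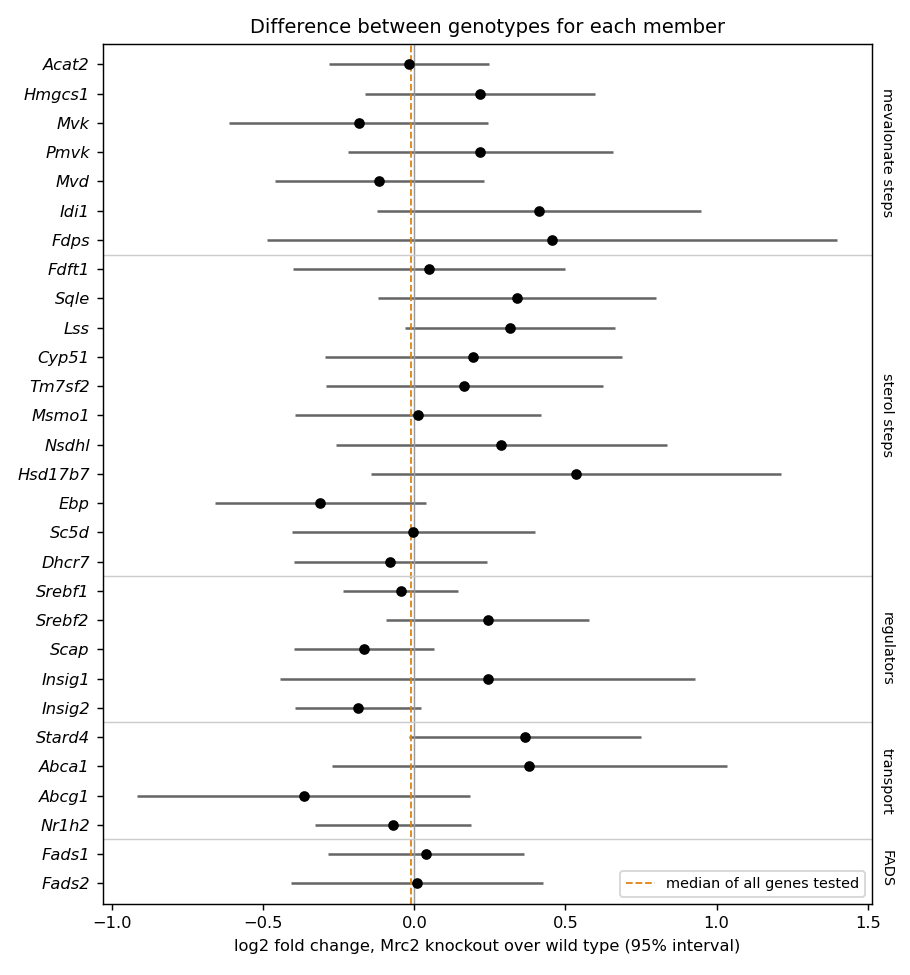
Log2 fold change of each of the 29 members, Mrc2 knockout over wild type, with its 95% interval from edgeR's quasi-likelihood fit of 5 libraries per genotype. Every interval includes 0, and the dashed line marks the median of all genes tested, -0.01.

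The first enzymes of the route make mevalonate and turn it into isoprenoid units. Hmgcs1, which condenses acetoacetyl-CoA and acetyl-CoA to HMG-CoA (chromosome 13, 119690379 to 119708260, plus strand), was at 40.8, 43.4, 48.4, 63.3 and 56.1 CPM in knockout replicates 1 to 5, against 44.5, 52.1, 50.5, 40.6 and 28.9 CPM in wild-type replicates 1 to 5. Knockout replicates 4 and 5 were the highest of the 10 cultures and wild-type replicate 5 the lowest, and the remaining cultures overlapped. Hmgcs1 had a log2 fold change of 0.22 (edgeR adjusted p = 0.565, SE 0.17), with a 95% interval of -0.16 to 0.60. The value was 0.09 without wild-type replicate 5 and 0.12 without knockout replicate 4.

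Idi1, which interconverts the isoprenoid building blocks (chromosome 13, 8885501 to 8892451, plus strand), was at 7.43, 7.61, 9.01, 12.3 and 6.88 CPM in knockout replicates 1 to 5, against 5.74, 10.0, 5.30, 7.09 and 4.20 CPM in wild-type replicates 1 to 5. Each knockout culture lay above the wild-type mean of 6.47 CPM, and wild-type replicate 2 exceeded 4 of the 5 knockout cultures. Its log2 fold change was 0.41 (edgeR adjusted p = 0.460, SE 0.25), and the interval of -0.12 to 0.95 includes no difference. With the slope of expression on gene length in each library as a covariate it was 0.25. That slope partly follows genotype, as given below, so values from this fit are not corrected values. The log2 fold change of Idi1 was also 0.25 without knockout replicate 4 and 0.62 without wild-type replicate 2.

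The other mevalonate genes went both ways, none past the test. Acat2, the thiolase that makes acetoacetyl-CoA, averaged 15.2 ± 0.984 CPM in knockout and 15.4 ± 2.05 CPM in wild type (SD, n = 5 each). Mevalonate kinase, Mvk, averaged 24.3 ± 6.34 CPM in knockout and 27.6 ± 6.58 CPM in wild type (SD, n = 5 each), with a log2 fold change of -0.18. For Mvk that value was -0.04 without wild-type replicate 3, -0.35 without knockout replicate 5 and 0.04 with the length slope as a covariate. The kinase of the next step, Pmvk, had a log2 fold change of 0.22, which was 0.10 without knockout replicate 5, and the decarboxylase Mvd had -0.12, which was -0.02 without wild-type replicate 3. Fdps, farnesyl diphosphate synthase, averaged 1.46 ± 0.894 CPM in knockout and 1.06 ± 0.425 CPM in wild type (SD, n = 5 each), the lowest of the set, also per kilobase of gene length. For Fdps the log2 fold change of 0.46 was 0.10 without knockout replicate 4 and 0.72 without wild-type replicate 2. Over the 7 mevalonate genes the median log2 fold change was 0.22, with 4 above 0 and 3 below.

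Several of these values are less certain, since reads that fit several genes may be lost or misplaced. Of the 50-base words in the annotated transcripts of Acat2, 39.1% also occur in transcripts of other genes, chiefly Acat3. The share was 26.2% for Fdps and 25.3% for Idi1, chiefly in predicted genes, and 11.6% for Hmgcs1. The level of Fdps in particular, at 0.346 ± 0.213 in knockout and 0.251 ± 0.101 in wild type in CPM per kilobase, is uncertain for this reason. Among the sterol steps the share was 26.5% for Fdft1, mostly through Ctsb, a far more abundant gene (3111 CPM) that overlaps it by 774 bases on the opposite strand. Tm7sf2 overlaps Vps51 by 9356 bases on the same strand, Cyp51 overlaps Akap9 by 166 bases and Srebf1 overlaps Rai1 by 109 bases. Whether the counting used strand is not given in the sources used here.

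From squalene onward, Sqle, the squalene epoxidase that adds the first oxygen and a control point of the route (chromosome 15, 59315077 to 59331192, plus strand), was at 52.0, 32.5, 41.6, 49.7 and 28.4 CPM in knockout replicates 1 to 5, against 27.8, 40.3, 27.4, 42.0 and 23.6 CPM in wild-type replicates 1 to 5. Knockout replicates 1 and 4 were the highest and wild-type replicate 5 the lowest, while knockout replicate 5 lay just above the 3 lowest wild-type cultures. Between genotypes the log2 fold change was 0.34 (edgeR adjusted p = 0.474, SE 0.21), with an interval of -0.12 to 0.80, and 0.10 with the length slope as a covariate.

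Lss, which closes squalene epoxide into the ring system of lanosterol (chromosome 10, 76531588 to 76557138, plus strand), was at 21.1, 19.8, 19.9, 20.4 and 16.2 CPM in knockout replicates 1 to 5, against 14.9, 22.0, 12.7, 15.3 and 13.3 CPM in wild-type replicates 1 to 5. All 5 knockout cultures lay above the wild-type mean of 15.6 CPM, yet wild-type replicate 2 was the highest of the 10. Lss had a log2 fold change of 0.32 (edgeR adjusted p = 0.406, SE 0.16), the interval was -0.03 to 0.66, and with the length slope as a covariate the value was 0.16. The 4 other knockout cultures spanned only 19.8 to 21.1 CPM.

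Hsd17b7, a ketosteroid reductase that helps remove methyl groups from lanosterol (chromosome 1, 169949535 to 169969241, minus strand), was at 32.9, 25.6, 32.8, 31.3 and 10.5 CPM in knockout replicates 1 to 5, against 19.0, 27.5, 15.5, 19.5 and 10.4 CPM in wild-type replicates 1 to 5. Knockout replicates 1 to 4 were at or above 25.6 CPM, as was wild-type replicate 2, and knockout replicate 5 was as low as the lowest wild-type culture. The log2 fold change of 0.53 (edgeR adjusted p = 0.452, SE 0.31) was the largest of the set, and its interval was -0.14 to 1.21. It was 0.04 with the length slope as a covariate and 0.36 with the leukocyte marker level as one. Without knockout replicate 5 it was 0.73 (edgeR adjusted p = 0.0788).

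Ebp, the isomerase that moves a ring double bond (chromosome X, 8185329 to 8193512, minus strand), was at 18.9, 18, 21.2, 21.7 and 31.3 CPM in knockout replicates 1 to 5, against 26.9, 22.4, 31.7, 28.3 and 28.4 CPM in wild-type replicates 1 to 5. Here knockout replicates 1 to 4 were the 4 lowest of the 10 cultures, and knockout replicate 5 was the second highest, just below wild-type replicate 3. Its log2 fold change was -0.31 (edgeR adjusted p = 0.411, SE 0.16), the interval was -0.66 to 0.04, and the value was -0.13 with the length slope as a covariate. Without knockout replicate 5 the log2 fold change was -0.47 (edgeR adjusted p = 0.0550) and the groups no longer overlapped. How many of all genes had no overlap in that fit was not counted, and 29.5% of all genes had an unadjusted p under 0.05. Leaving out knockout replicate 1 or wild-type replicate 2 also left 1 of the 29 members without overlap. That member was Insig2 without knockout replicate 1 and Lss without wild-type replicate 2, and Ebp overlapped in both fits. The share of all genes without overlap was not counted in these fits either.

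The other sterol enzymes had smaller differences, none past the test. Fdft1, squalene synthase, averaged 36.2 ± 8.31 CPM in knockout and 35.0 ± 8.79 CPM in wild type (SD, n = 5 each). Cyp51, the lanosterol demethylase, averaged 64.5 ± 14.2 CPM in knockout and 56.3 ± 17.0 CPM in wild type (SD, n = 5 each) and had a log2 fold change of 0.20. This was 0.03 without wild-type replicate 5 and 0.08 without knockout replicate 4. Msmo1, the methylsterol oxidase, averaged 40.7 ± 8.04 CPM in knockout and 40.3 ± 9.31 CPM in wild type (SD, n = 5 each), and Nsdhl, the dehydrogenase that acts after it, 11.8 ± 3.47 CPM in knockout and 9.64 ± 2.80 CPM in wild type (SD, n = 5 each). Nsdhl had a log2 fold change of 0.29, against -0.05 with the length slope as a covariate and 0.18 to 0.46 when single libraries were left out. The genotypes overlapped for each of these 4 genes. Sc5d, which introduces a late double bond, averaged 91.7 ± 17.4 CPM in knockout and 91.8 ± 23.1 CPM in wild type (SD, n = 5 each). Tm7sf2, a sterol reductase, had a log2 fold change of 0.17 (0.05 without wild-type replicate 4), and Dhcr7, a reductase of the last step, had -0.08. Over the 11 sterol genes the median was 0.17, with 8 above 0 and 3 below. For all 18 synthesis enzymes the median was 0.18, and it lay between 0.06 and 0.26 when single libraries were left out.

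Levels between genes can be compared per length, in CPM per kilobase of the gene length in the table. The desaturases Fads2 and Fads1, which insert double bonds into polyunsaturated fatty acids, stood at 44.4 ± 10.9 in knockout and 44.2 ± 9.01 in wild type for Fads2 and 42.9 ± 7.19 in knockout and 41.7 ± 6.72 in wild type for Fads1. Nr1h2 stood at 23.0 ± 3.15 in knockout and 24.2 ± 2.59 in wild type. The place of Fads2 depends on its length, which is 1508 bases in the deposited table and 3295 bases as merged exons of the GENCODE M21 annotation. By the annotated exons Fads2 was at 20.3 ± 4.99 in knockout and 20.2 ± 4.12 in wild type, within an SD range that overlaps that of Nr1h2, and Fads1 (4812 bases) was at 30.8 ± 5.17 in knockout and 30 ± 4.82 in wild type, the highest mean of the set. Among the enzymes Sc5d was the highest, at 18.8 ± 3.58 in knockout and 18.9 ± 4.75 in wild type, and Cyp51 came next at 14.6 ± 3.22 in knockout and 12.8 ± 3.85 in wild type. At the low end of the enzymes stood Lss, at 1.80 ± 0.178 in knockout and 1.45 ± 0.344 in wild type, Tm7sf2, at 0.982 ± 0.175 in knockout and 0.872 ± 0.221 in wild type, and Fdps. Between genotypes both desaturases were close to even, with log2 fold changes of 0.04 for Fads1 and 0.01 for Fads2 and intervals of -0.29 to 0.36 and -0.41 to 0.42.

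Among the regulators, Srebf2 (chromosome 15, 82147181 to 82205379, plus strand) was at 127, 139, 154, 173 and 118 CPM in knockout replicates 1 to 5, against 115, 144, 131, 127 and 84.0 CPM in wild-type replicates 1 to 5. Knockout replicates 4 and 3 were the highest of the 10 cultures and wild-type replicate 5 the lowest, with the others mixed. Its log2 fold change was 0.24 (edgeR adjusted p = 0.485, SE 0.15), with an interval of -0.09 to 0.58, and 0.12 without wild-type replicate 5.

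Srebf1, whose products SREBP-1a and SREBP-1c act more on fatty acid genes (chromosome 11, 60199089 to 60222581, minus strand), was at 79.6, 87.2, 81.0, 94.3 and 87.7 CPM in knockout replicates 1 to 5, against 90.2, 95.7, 88.3, 85.5 and 83.7 CPM in wild-type replicates 1 to 5. It was the most even member across wild-type cultures, where the highest was 1.14-fold the lowest, and the genotypes were fully interleaved. Srebf1 had a log2 fold change of -0.04 (edgeR adjusted p = 0.823, SE 0.09), with an interval of -0.24 to 0.15.

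Insig1, which holds SREBP in the endoplasmic reticulum and is itself a target of SREBP (chromosome 5, 28071363 to 28078662, plus strand), was at 30.3, 39.1, 63.7, 52.9 and 26.8 CPM in knockout replicates 1 to 5, against 34.6, 61.2, 29.7, 36.0 and 17.9 CPM in wild-type replicates 1 to 5. It was the member with the widest range among wild-type cultures, 3.41-fold between replicates 2 and 5, and 2.38-fold among knockout cultures. The difference between genotypes was smaller, a log2 fold change of 0.24 (edgeR adjusted p = 0.724, SE 0.31), with an interval of -0.44 to 0.93, and it was -0.02 with the length slope as a covariate. It was 0.05 without knockout replicate 3, 0.06 without wild-type replicate 5 and 0.51 without wild-type replicate 2.

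Insig2, the related retention protein (chromosome 1, 121304353 to 121332589, minus strand), was at 50.5, 41.3, 46.0, 40.2 and 44.2 CPM in knockout replicates 1 to 5, against 51.8, 46.4, 49.1, 53.3 and 52.2 CPM in wild-type replicates 1 to 5. All 5 knockout cultures lay below the wild-type mean of 50.6 CPM, and knockout replicate 1 was the 1 culture that reached into the wild-type range. The log2 fold change was -0.19 (edgeR adjusted p = 0.411, SE 0.10), with an interval of -0.39 to 0.02. Scap, the escort of SREBP, averaged 77.6 ± 4.27 CPM in knockout and 87.1 ± 11.3 CPM in wild type (SD, n = 5 each), and 0 of 5 knockout cultures lay above the wild-type mean. Its log2 fold change was -0.17. With the length slope as a covariate, 2 of 29 members had an unadjusted p under 0.05, beside 13.4% of all genes, and 0 of 29 were called, beside 0.0279%. They were Scap and Insig2, with a log2 fold change of -0.23 for Scap (edgeR adjusted p = 0.311) and -0.19 for Insig2 (edgeR adjusted p = 0.372).

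**Figure D2:**
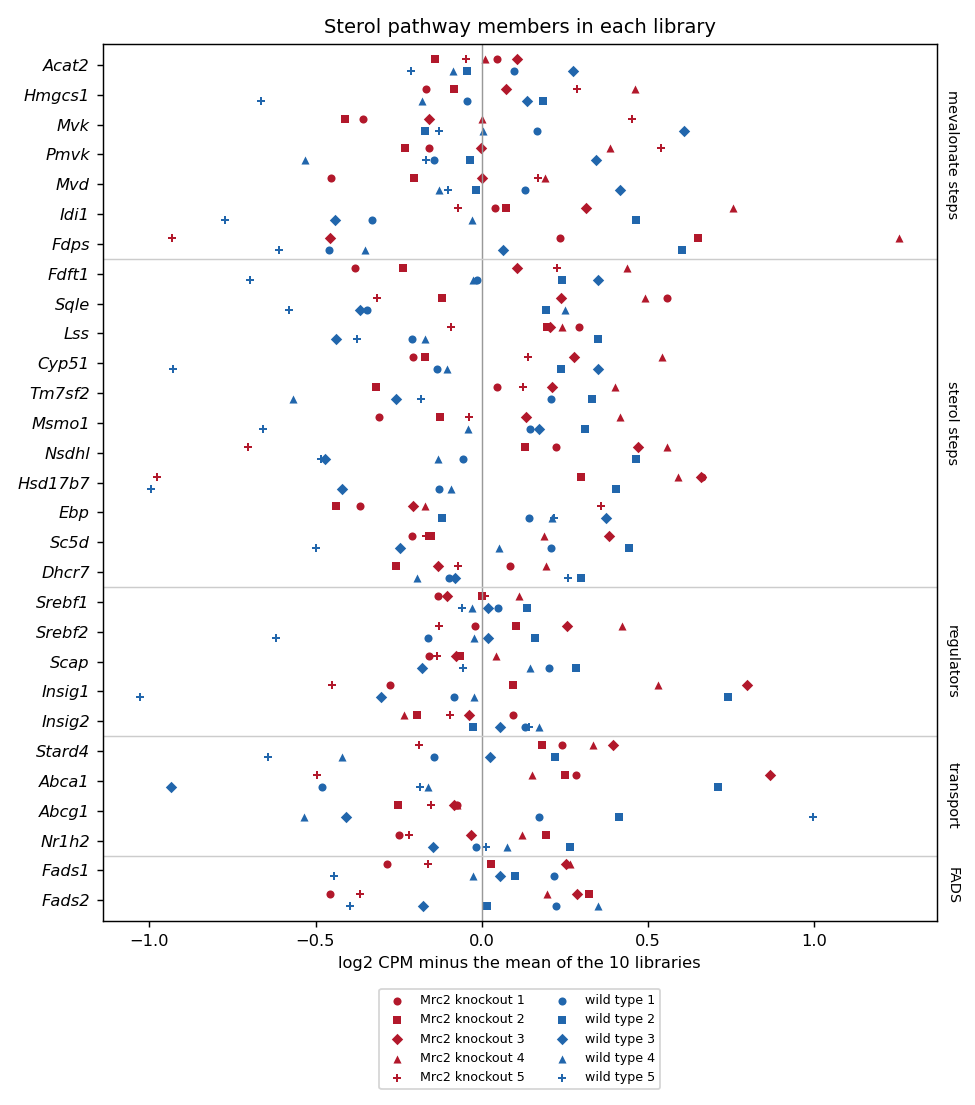
Level of each of the 29 members in each library, as log2 CPM minus the mean of the 10 libraries, with knockout libraries in red above wild-type libraries in blue and FADS marking the desaturases. The genotypes overlap for every member, Insig1 and Abca1 are spread widely and Srebf1 and Insig2 narrowly.

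Of the transport genes, Stard4, a soluble sterol carrier and a known SREBP-2 target, was at 20.4, 19.6, 22.7, 21.8 and 15.2 CPM in knockout replicates 1 to 5, against 15.6, 20.1, 17.6, 12.9 and 11.0 CPM in wild-type replicates 1 to 5. Knockout replicates 3, 4 and 1 were the highest, wild-type replicate 2 followed closely, and wild-type replicates 4 and 5 were the lowest. Its log2 fold change of 0.37 (edgeR adjusted p = 0.391, SE 0.18) had the smallest adjusted p of the set, with an interval of -0.02 to 0.75, and was 0.23 with the length slope as a covariate.

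Abca1, which loads cellular cholesterol onto apolipoproteins (chromosome 4, 53030787 to 53159895, minus strand), was at 167, 164, 251, 153 and 97.6 CPM in knockout replicates 1 to 5, against 98.4, 225, 71.8, 123 and 121 CPM in wild-type replicates 1 to 5. Knockout replicate 3 and wild-type replicate 2 were the 2 highest and wild-type replicate 3 the lowest, and knockout replicate 5 lay among the wild-type cultures. Its log2 fold change was 0.38 (edgeR adjusted p = 0.559, SE 0.30), with an interval of -0.27 to 1.03. Without wild-type replicate 2 the value was 0.68 (edgeR adjusted p = 0.191), without knockout replicate 3 it was 0.18, without wild-type replicate 3 it was 0.22, and with the length slope as a covariate it was 0.04.

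Abcg1, a partner exporter that macrophages carry in quantity, averaged 16.6 ± 0.869 CPM in knockout and 21.4 ± 9.59 CPM in wild type (SD, n = 5 each), with a log2 fold change of -0.37 (edgeR adjusted p = 0.509, SE 0.25). The knockout cultures spanned only 15.2 to 17.2 CPM, while wild-type replicate 5 stood at 36.2 CPM, above all other cultures, and the other wild-type cultures spanned 12.5 to 24.2 CPM. Wild-type replicate 5 also had the highest summed level of 13 leukocyte and macrophage markers, 12637 CPM. The range was 3209.7 to 6976 CPM in knockout cultures, and the lowest wild-type value was 2639.6 CPM. Knockout replicate 5, with the highest sum of the knockout cultures, had Abcg1 at 16.3 CPM, within the narrow knockout range. All 13 of these markers were detected, and 12 of them had a log2 fold change below 0. When single libraries were left out, the log2 fold change of Abcg1 lay between -0.51 without wild-type replicate 4 (edgeR adjusted p = 0.445) and -0.10 without wild-type replicate 5. With the marker level as a covariate it was -0.08. In such bulk samples fewer cells of a type and less RNA per cell cannot be told apart, and the cause of the Abcg1 values was not tested. Nr1h2, the LXR receptor of most tissues, averaged 77.2 ± 10.6 CPM in knockout and 81.1 ± 8.68 CPM in wild type (SD, n = 5 each), with a log2 fold change of -0.07.

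The members varied widely between cultures of the same genotype. In wild type the highest culture exceeded the lowest by more than 2-fold for 8 of the 29 members, and in knockout for 5. Some cultures were low or high for many enzymes at once. Wild-type replicate 5 was the lowest of the 5 wild-type cultures for 11 of the 18 synthesis enzymes, and the lowest of all 10 for 9 of them. Knockout replicate 4 was the highest of all 10 cultures for 8 of the 18 and the lowest for 0. Wild-type replicate 2 was the highest wild-type culture for 10 of the 18.

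Expressed as the median of the 18 enzymes after each gene was centred over the 10 libraries (log2 CPM), knockout replicates 1 to 5 stood at -0.06, -0.15, 0.12, 0.41 and -0.04, and wild-type replicates 1 to 5 at -0.05, 0.27, 0.10, -0.10 and -0.49. The lowest culture and the second highest are thus both wild type. Within a genotype these medians had a pooled SD of 0.25, and the median log2 fold change of the enzymes between genotypes was 0.18. The SD is that of single libraries and does not measure the spread of a difference between groups of 5. Without wild-type replicate 5 the median log2 fold change of the enzymes was 0.06, and that of all 29 members turned to -0.03. It also turned without knockout replicate 4, to -0.02. Wild-type replicate 5 had the lowest summed fibroblast markers of the 10 cultures, 15808 CPM, as well as the highest leukocyte markers. With the leukocyte marker level as a covariate the median of the enzymes was 0.21, and the part of the fibroblast markers was not tested.

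**Figure D3:**
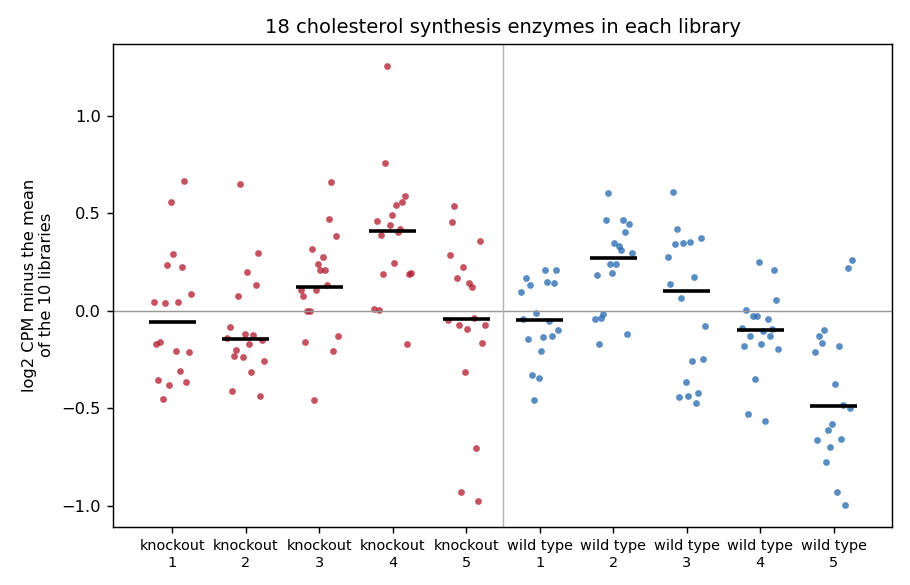
The 18 synthesis enzymes in each library, knockout replicates on the left and wild-type replicates on the right, as log2 CPM minus the mean of the 10 libraries. Each point is 1 enzyme and each bar the median of a library, which is lowest in wild-type replicate 5 (-0.49) and highest in knockout replicate 4 (0.41).

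The libraries also differed in how expression depended on gene length, members included. The slope of the deviation of log2 CPM on log2 gene length over all 14360 genes was 0.14, 0.08, 0.10, 0.06 and -0.16 in knockout replicates 1 to 5, and -0.06, 0.09, -0.15, -0.00335 and -0.09 in wild-type replicates 1 to 5. Over the 29 members it was 0.21, 0.07, 0.09, 0.04 and -0.12 in knockout, and -0.11, 0.17, -0.24, -0.05 and -0.07 in wild type. The slope was above 0 in 4 of 5 knockout libraries and in 1 of 5 wild-type libraries. It thus partly follows genotype, and a fit with the slope as a covariate cannot fully tell slope and genotype apart.

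Of the 7 members shorter than 3000 bases, knockout replicate 5 was the highest knockout culture for 3, namely Mvk, Pmvk and Ebp, and wild-type replicate 3 was the highest wild-type culture for 5. Among the 22 longer members these counts were 0 and 2, while knockout replicate 5 was the lowest knockout culture for 9. The difference between knockout replicate 5 and the mean of the other knockout cultures had a median of 0.28 (log2) over the 7 shorter members and -0.22 over the 22 longer ones. Over all genes tested the medians were 0.42 for genes under 3000 bases and -0.16 for longer genes. The lowest of these differences were those of Hsd17b7 (5104 bases), Fdps (4208 bases) and Nsdhl (2853 bases). Fads2 counts among the shorter members by the table and would be among the longer by the annotated exons. The median log2 fold change between genotypes was -0.02 for the 7 shorter and 0.18 for the 22 longer members, beside -0.14 and 0.05 for all genes tested of the same lengths. With the length slope as a covariate the median of the 18 enzymes was 0.07.

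**Figure D4:**
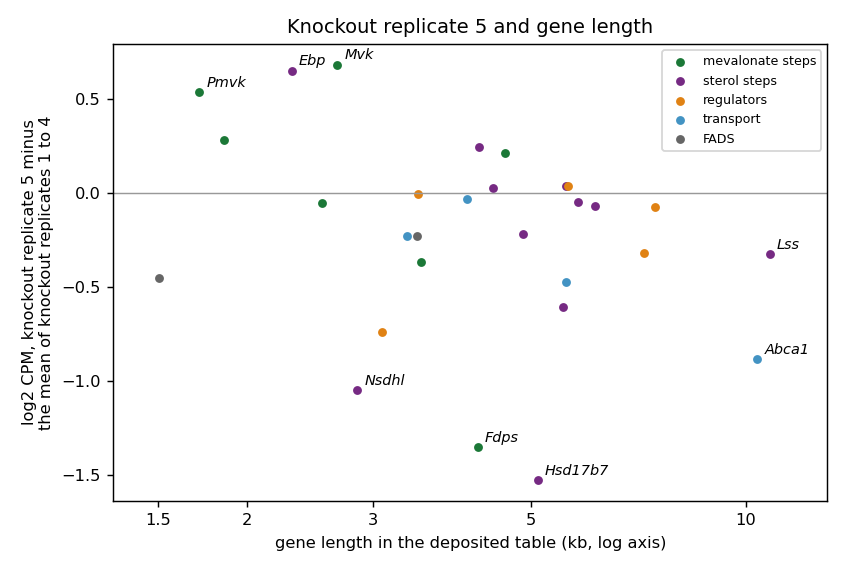
Difference in log2 CPM between knockout replicate 5 and the mean of knockout replicates 1 to 4 for each of the 29 members, against gene length on a log axis, coloured by role with FADS for the desaturases. Mvk, Ebp and Pmvk lie highest and Hsd17b7 and Fdps lowest.

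Other genes of sterol metabolism were counted from lists that hold no member. Of 22 further synthesis and SREBP processing genes, 0 passed over all genes by edgeR and 3 had an unadjusted p under 0.05, 2 higher and 1 lower, a share of 13.6% beside 13.3% of all genes. Lbr, a nuclear envelope protein that is also a sterol reductase, averaged 22.4 ± 3.31 CPM in knockout and 15.5 ± 2.09 CPM in wild type (SD, n = 5 each), with a difference in log2 of 0.53 (edgeR adjusted p = 0.236, SE 0.14). Syvn1, a ubiquitin ligase of the endoplasmic reticulum, averaged 77.8 ± 7.08 CPM in knockout and 92.4 ± 7.72 CPM in wild type (SD, n = 5 each).

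Of 15 genes of the isoprenoid branch, which prenylates proteins and builds dolichol and ubiquinone, 4 had a log2 fold change above 0 and 11 below. Of all genes tested 48.4% were above 0. In this list 0 passed by edgeR and 2 had an unadjusted p under 0.05, a share of 13.3% beside 13.3% of all genes. Coq2 of ubiquinone synthesis had a log2 fold change of -0.28 (edgeR adjusted p = 0.350, SE 0.11), and Pggt1b, a subunit of a prenyltransferase, had 0.76 (edgeR adjusted p = 0.343, SE 0.29). The list of sterol uptake, transport and storage had 26 tested genes, of which 0 passed by edgeR. An unadjusted p under 0.05 was found for 3, 1 higher and 2 lower, a share of 11.5% beside 13.3% of all genes. Soat1, which esterifies cholesterol for storage, averaged 144 ± 12.6 CPM in knockout and 169.9 ± 5.70 CPM in wild type (SD, n = 5 each), with a log2 fold change of -0.24 (edgeR adjusted p = 0.343, SE 0.09). Npc2, a lysosomal sterol carrier, averaged 417 ± 82.7 CPM in knockout and 559 ± 93.9 CPM in wild type (SD, n = 5 each), with -0.42 (edgeR adjusted p = 0.343, SE 0.16).

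Among 15 tested genes of LXR receptors, their targets and oxysterol enzymes, 0 passed by edgeR and 3 had an unadjusted p under 0.05. That is a share of 20% beside 13.3% of all genes. Ch25h, which makes an oxysterol that restrains SREBP, averaged 74.8 ± 22.8 CPM in knockout and 109 ± 34.3 CPM in wild type (SD, n = 5 each), with a log2 fold change of -0.55 (edgeR adjusted p = 0.356, SE 0.23). The nuclear receptor cofactors Ncor1 and Ncoa1 had 0.54 (edgeR adjusted p = 0.356, SE 0.23) and 0.70 (edgeR adjusted p = 0.363, SE 0.31). Of 15 tested genes of fatty acid synthesis linked to SREBP-1, 10 were above 0 and 5 below, where 48.4% of all genes were above 0. Here 0 passed by edgeR and 2 had an unadjusted p under 0.05, a share of 13.3% beside 13.3% of all genes. The median log2 fold change of the list was 0.25, beside -0.01 over all genes tested. Acaca, acetyl-CoA carboxylase, averaged 45.6 ± 5.82 CPM in knockout and 37.6 ± 3.97 CPM in wild type (SD, n = 5 each), with 0.28 (edgeR adjusted p = 0.355, SE 0.12). Gpam, which starts glycerolipid synthesis, averaged 27.5 ± 9.68 CPM in knockout and 15.9 ± 6.69 CPM in wild type (SD, n = 5 each), with 0.79 (edgeR adjusted p = 0.355, SE 0.33).

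Marker levels give the setting for these values. The summed level of 10 fibroblast markers was 22677 to 40597 CPM in knockout and 15808 to 27673 CPM in wild type. Every fibroblast marker was detected, and 7 of the 10 had a log2 fold change above 0. Of these 10, 0 were called, and 4 had an unadjusted p under 0.05 by edgeR, all higher in knockout (40%, beside 13.3% of all genes). Of 8 epithelial markers 7 stayed below 1 CPM in every library. The 7 endothelial markers summed to at most 13.7 CPM in knockout and 15.8 CPM in wild type. Mesothelial markers, 5 genes, summed to 84.7 to 274 CPM in knockout and 107 to 588 CPM in wild type. These 5 genes all had a log2 fold change below 0. Smooth muscle and pericyte markers, also 5 genes, summed to 1533 to 2161 CPM in knockout and 834 to 2362 CPM in wild type. The 6 markers of cycling cells summed to 271 to 368 CPM in knockout and 169 to 272 CPM in wild type, and 6 of 6 had a log2 fold change above 0. Of these 6, 0 were called, and 5 had an unadjusted p under 0.05 by edgeR (83.3%, beside 13.3% of all genes). The groups did not overlap for 3 of the 6 (50%, beside 2.05% of all genes). An unadjusted p under 0.05 by edgeR was also found for 2 of the 5 smooth muscle and pericyte markers (40%), higher in knockout. It was found for 1 of 5 tested endothelial and 1 of 5 mesothelial markers (20% each), lower in knockout, and for 0 of 13 leukocyte and macrophage markers. In these lists too 0 were called. No marker of these lists was at 0 in every library. The part of these levels in the values of the sterol genes was not tested, except for the leukocyte markers as given above.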

How the data were processed

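Raw read counts for each Ensembl gene, in 1 column per library, are what the authors deposited; per the submitters' processing notes STAR 2.5, HTSeq 0.6.1, DESeq2 2 and mm10 were used, without their roles. The sources used here give neither the annotation release nor the strand setting. The gene length is that of the deposited table. The table had 0 rows without a gene name, and no pair of libraries agreed within sampling noise (lowest chi-square per degree of freedom 17.5). Knockout replicate 5 was at 100.7 to 190.2 with the other knockout libraries. With wild-type replicates 1 to 5 it was at 56.8, 152.9, 21.9, 80.6 and 59.5, so it lay nearer to most wild-type libraries. The cause was not tested.

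Groups and replicate numbers came from the titles. Genes were filtered with filterByExpr (14360 of 28582 counted genes kept), scaled by TMM and fitted in edgeR 4.0.16 under R 4.3.3 (quasi-likelihood F test), without covariates, at a Benjamini-Hochberg adjusted p under 0.05 over all genes. A standard error is the size of the log2 fold change over the root of F, and 95% intervals took the test's degrees of freedom. CPM were computed on TMM-scaled totals, and log2 CPM with a prior count of 2. The code was tested on simulated data. Alternatives were other scalings, no filter, DESeq2 1.42.0, limma-voom 3.58.1, a replicate block, a leukocyte covariate and single libraries left out. The length slope as a covariate, DESeq2 without knockout replicate 5 and levels by annotated exon length were chosen after seeing the data.

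The members and lists were chosen with earlier results of these data known. Members given per library were the 6 with the smallest unadjusted p (none was called) and 6 set by role (Srebf1, Srebf2, Insig1, Hmgcs1, Sqle, Abca1), and from other lists up to 3 genes with the smallest unadjusted p under 0.05, of which 2 are not reported here. Promoters were printed for up to 5 of the 12, matches to the sterol element first and then in order of p. Of the 29 members, 25 have the same coordinates in the mm10 GENCODE M21 annotation, from whose transcripts the 50-base words were taken. Intervals are those of the log2 fold change between genotypes and not the range of single cultures. Their width reflects only the spread between these cultures.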

Additional observations from a re-analysis of the deposited data

Results flagged for a closer look

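In 3 of the 58 groups of 5 values (29 members in each genotype), 1 culture stood apart from the other 4 by Dixon's criterion, which chance meets in about 5% of groups. Lss was at 16.2 CPM in knockout replicate 5, below the 19.8 to 21.1 CPM of the other knockout cultures. Lss was also at 22.0 CPM in wild-type replicate 2, above the 12.7 to 15.3 CPM of the other wild-type cultures. Ebp was at 31.3 CPM in knockout replicate 5, above the 18 to 21.7 CPM of the other knockout cultures.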

How the results depend on the processing

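Of the 29 members, 18 kept the sign of their log2 fold change under 19 other settings and 11 turned it under at least 1. Members called over all genes stayed at 0, except 2 with DESeq2 without knockout replicate 5 (Ebp, adjusted p = 0.0109, and Hsd17b7, adjusted p = 0.0235). Genes called numbered 2, against 243 with DESeq2, 1 with limma-voom, 4 with the gene length slope as a covariate, 2243 with DESeq2 without knockout replicate 5, and 1 to 203 when single libraries were left out, 203 without knockout replicate 5. Members with an unadjusted p under 0.05 numbered 0, against 1 with upper-quartile factors (13.1% of all genes), 2 with the length slope (13.4%), 6 with DESeq2 without knockout replicate 5 (31.1%), and 0 to 7 when single libraries were left out. Members whose groups did not overlap numbered 1 without knockout replicate 1 (Insig2), knockout replicate 5 (Ebp) or wild-type replicate 2 (Lss), and 0 without any other single library. The share of all genes without overlap was not counted in those fits, and the 2.05% given above holds for all 10 libraries only. With the replicate number as a block, 0 genes and 0 members were called and 3 members (Ebp, Hsd17b7 and Stard4) had an unadjusted p under 0.05, beside 13.3% of all genes in that fit. The replicate numbers were not taken to pair libraries, since the titles do not say that numbers are shared between genotypes. Correlations of their deviations were -0.24 to 0.38 for same-numbered libraries and -0.59 to 0.51 for differently numbered ones.

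Log2 fold changes that turned their sign were as follows. Sc5d was 0.0016 with DESeq2 size factors, 0.0025 without a filter, 0.015 with the replicate block, 0.0017 with DESeq2, 0.017 with limma-voom and 0.046 with DESeq2 without knockout replicate 5. Upper-quartile factors gave -0.0058 for Msmo1 and -0.014 for Fads2. Fads2 was -0.0044 with the replicate block and -0.0065 with limma-voom. The leukocyte covariate gave -0.0024 for Msmo1, 0.017 for Dhcr7, -0.0035 for Fads1 and -0.11 for Fads2. The length slope gave 0.0019 for Acat2, 0.037 for Mvk (-0.18 without it), 0.012 for Mvd, -0.020 for Msmo1, -0.049 for Nsdhl (0.29 without it), -0.024 for Insig1 (0.24 without it), -0.0076 for Fads1 and -0.11 for Fads2. With single libraries left out the ranges were -0.084 to 0.051 for Acat2, -0.10 to 0.14 for Fdft1, -0.13 to 0.087 for Msmo1, -0.12 to 0.11 for Sc5d, -0.066 to 0.10 for Fads1 and -0.094 to 0.10 for Fads2. The cause was not tested. Depth limits Fdps most, which averaged 1.46 CPM in knockout and 1.06 CPM in wild type.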
